A study of Mus musculus with 20 samples.

Results

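The comparison described here asks what the bispecific antibody ABL503 changed in tumour-infiltrating CD8+ T cells when it was given on top of pembrolizumab. It sets the 5 Combination libraries against the 5 Pembrolizumab libraries, 10 of the 20 libraries measured. Its members are the 11794 genes, of 45777 gene symbols in the deposited table, that reached 1 FPKM in at least 5 of the 20 libraries. FPKM scales sequenced fragments by transcript length and library size, and the unit was inferred from the values. Of these genes, 19 passed the test (0.161%), 8 higher (0.0678%) and 11 lower (0.0933%) in the Combination. The genes that rose with the smallest adjusted p encode the interferon-inducible surface protein Ly6e and galectin-9 (Lgals9), and the gene that fell with the smallest encodes the stress and survival factor Ier3. No granzyme, perforin, interferon gamma, 4-1BB or PD-1 gene passed in either direction.

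All animals were C57BL/6 mice whose PD-1, PD-L1 and 4-1BB were the human ones (hPD-1/hPD-L1/h4-1BB), and all carried MC38 tumours, a mouse colon carcinoma line, here overexpressing human PD-L1. Treatment began after random grouping at a mean tumour volume between 150 and 200 mm3, and the CD8+ T cells were sorted from the tumours at day 4. The Pembrolizumab group received pembrolizumab, an antibody that blocks human PD-1, and the Combination group received pembrolizumab with ABL503, whose arms recognise PD-L1 and the receptor 4-1BB. The Control and ABL503 groups, of 5 libraries each, received no pembrolizumab. Doses, the content of the control treatment and the animals' age are not given in the sources used here. Whether each library is a different mouse is not in the labels. The p-values then describe only how far these samples spread, which may be technical. The tumour was a transplanted line that carried added ligand in every group, and ABL503 was therefore compared with its absence in the presence of that ligand only.

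PD-1 is an inhibitory receptor that activated T cells carry, and its ligand PD-L1 on tumour cells dampens signals from the T-cell receptor and from CD28. 4-1BB (Tnfrsf9) is a costimulatory receptor of the TNF receptor superfamily that appears on CD8+ T cells after antigen recognition, recruits TRAF adaptors and activates NF-kB, and is known for favouring T-cell survival and cytotoxic function. A bispecific antibody of this design is meant to cluster 4-1BB where PD-L1 is present, while also blocking PD-L1.

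The libraries carried the RNA of the sorted cells. Column sums ran from 575918 to 654333 over the 20 libraries, and read depth is unknown. The summed level of 10 CD8+ T-cell markers was 8258 to 9565 FPKM in the Combination and 8323 to 8902 in Pembrolizumab. Markers of other cells were present at lower levels: 15 genes of antigen-presenting cells summed to 55.8 to 88.7 FPKM in the Combination and 59.0 to 170.2 in Pembrolizumab, 10 NK-cell genes to 64.1 to 133 and 102.1 to 159.3, and 11 B-cell and plasma-cell genes to 42.8 to 294.9 and 99.2 to 349.9. The 18 macrophage and monocyte markers summed to 2651 to 3636 FPKM in the Combination and 1892 to 3491 in Pembrolizumab, of which all but 68.1 to 117 and 92.6 to 166 FPKM was Ly6c2, a gene that CD8+ T cells also express. Of the 11 tested, 8 were below 0 (median -0.74) and 0 passed (2 higher and 3 lower at an unadjusted p under 0.05). The 10 markers of CD4 and regulatory T cells, several of which activated CD8+ T cells also express, summed to 252 to 292.8 FPKM in the Combination and 194.1 to 249.7 in Pembrolizumab. Most of that was Ctla4, at 196.4 to 256.1 and 139.5 to 193.2 FPKM, while Cd4 and Foxp3 were at most 0.54 and 0.98 FPKM in these libraries. Igkc and Ighm likewise made up most of the B-cell and plasma-cell sums. Clec9a of dendritic cells, Ms4a1 of B cells and Csf3r, Cxcr2 and Camp of neutrophils were at 0 in all 10 libraries. Other members were present. Cd74, H2-Aa, Lyz2 and Cd14 averaged 42.9, 13.9, 13.3 and 5.17 FPKM in Pembrolizumab and 29.9, 3.22, 3.40 and 0.28 in the Combination. H2-DMa went the other way, from 4.99 to 8.03 FPKM. Of the 11 tested antigen-presenting markers 9 were below and 2 above 0, and of the 11 macrophage markers 3 were above it. In bulk RNA, fewer cells of a type and less RNA per cell cannot be told apart.

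Differences are given on the log2(FPKM + 1) scale, Combination minus Pembrolizumab, and understate the fold change of genes with low values. They were tested with limma over all tested genes, and genes with a Benjamini-Hochberg adjusted p below 0.05 were called. The median difference over all 11794 genes was 0.0028, which the scaling of FPKM to library size largely sets. The 19 genes differed by 0.47 to 1.23 where they rose and by 0.58 to 2.03 in size where they fell. In 18 of them, 7 of the 8 that rose and all 11 that fell, the 5 Combination libraries did not overlap the 5 Pembrolizumab libraries. Over all tested genes this was so for 325 (2.76%), 187 of them higher (1.59%) and 138 lower (1.17%). At an adjusted p under 0.1 the count was 99 genes, and at an unadjusted p under 0.05 it was 1552, 845 of them higher.

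**Figure D1:**
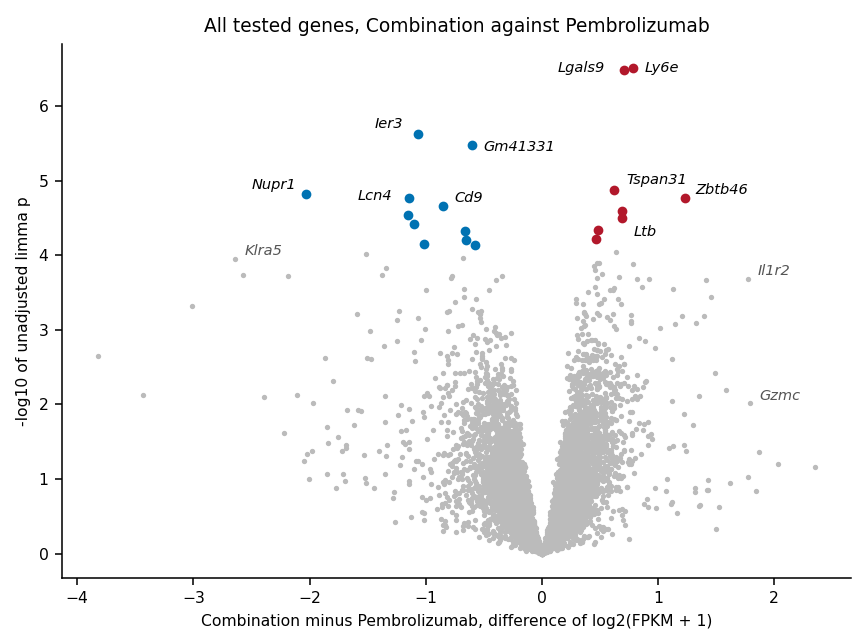
Each point is 1 of 11794 tested genes, with the difference between Combination and Pembrolizumab on the log2(FPKM + 1) scale on the x axis and -log10 of the unadjusted p on the y axis. Genes past the threshold are coloured, 8 to the right and 11 to the left, and Il1r2, Gzmc and Klra5 are labelled in grey among large differences that did not pass.

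Ly6e (chr15:74955025-74959904, plus strand, GRCm38.p6) encodes a GPI-anchored protein of the LY6 family that type I interferon induces. Ly6e read 460.4, 561, 566, 518 and 567 FPKM in Pembrolizumab libraries 1 to 5 and 1114, 993, 784, 894 and 846 in Combination libraries 1 to 5. Every Combination library lay above every Pembrolizumab library. The mean was 926 ± 129.6 FPKM in the Combination and 534 ± 46.0 in Pembrolizumab (SD, n = 5, as for every mean that follows), a rise of 0.79 (SE 0.11, adjusted p = 0.00194). Without pembrolizumab the means were 709.8 FPKM in Control and 748 in ABL503, a difference of 0.081 (adjusted p = 0.839).

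Lgals9 (chr11:78962979-78984924, minus strand) encodes galectin-9, a lectin that binds beta-galactosides and is a ligand of the inhibitory receptor TIM-3. Lgals9 read 74.6, 97.3, 89.1, 79.2 and 76.5 FPKM in Pembrolizumab libraries 1 to 5 and 125, 134, 133, 158 and 132 in Combination libraries 1 to 5. The groups did not overlap, and the lowest Combination library stood at 124.7 FPKM against a highest Pembrolizumab library of 97.3. Galectin-9 RNA rose by 0.71 (SE 0.095, adjusted p = 0.00194). Adding ABL503 without pembrolizumab gave 89.8 FPKM against 108 in Control, a difference of -0.26 (adjusted p = 0.273). The interaction, which tests whether ABL503 acted differently with and without pembrolizumab, was 0.97 (SE 0.13, adjusted p = 0.00461). TIM-3 itself (Havcr2) differed by -0.29, with a 95% interval of -0.60 to 0.021 (adjusted p = 0.415).

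Ltb (chr17:35194507-35196305, plus strand) encodes lymphotoxin beta, a membrane-bound ligand of the TNF superfamily. Ltb read 108, 102, 153, 99.5 and 90.4 FPKM in Pembrolizumab libraries 1 to 5 and 173, 212, 153, 209.7 and 145 in Combination libraries 1 to 5. Combination library 5 lay below Pembrolizumab library 3, so Ltb is the 1 gene of the 19 whose groups overlapped. It rose by 0.69 (SE 0.13, adjusted p = 0.0310). Stat4 (chr1:51987106-52107189, plus strand), the transcription factor that carries interleukin 12 signals, read 81.0, 97.2, 80.7, 77.9 and 89.6 FPKM in the Pembrolizumab libraries and 102, 119.8, 120.1, 115 and 135 in the Combination libraries. All Combination values were above all Pembrolizumab values, by a small margin between Combination library 1 and Pembrolizumab library 2. The rise of Stat4 was 0.47 (SE 0.093, adjusted p = 0.0431), and its interaction was 0.75 (adjusted p = 0.0226). Rab8a (chr8:72161200-72181366, plus strand), a small GTPase that directs vesicles to the plasma membrane, went from 74.7 ± 9.67 to 105 ± 5.44 FPKM, a rise of 0.49 (SE 0.094, adjusted p = 0.0375).

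A pair of tetraspanins, membrane proteins that organise other receptors, rose as well. Tspan13 (chr12:36014555-36042478, minus strand) read 48.1, 55.1, 45.8, 45.9 and 49.6 FPKM in Pembrolizumab and 70.6, 78.2, 71.8, 79.3 and 100.5 in the Combination, with no overlap. Its rise was 0.69 (SE 0.13, adjusted p = 0.0295). Tspan31 (chr10:127067287-127070972, minus strand) went from 49.7 ± 5.85 to 77.3 ± 11.2 FPKM, a rise of 0.62 (SE 0.11, adjusted p = 0.0254). Tspan31 overlaps Cdk4 on the opposite strand, and 41.2% of its transcript is identical to the Cdk4 transcript, so reads of both cannot be told apart without strand, and its value is uncertain. Cdk4 differed by 0.37 (adjusted p = 0.189). The eighth rise, Zbtb46 (chr2:181371009-181493262, minus strand), was low, at 3.41, 1.88, 2.63, 1.69 and 1.06 FPKM in Pembrolizumab and 4.32, 6.91, 4.52, 8.85 and 7.04 in the Combination. It rose by 1.23 (SE 0.22, adjusted p = 0.0254) and is named although its mean level is below the limit of the naming rule. Zbtb46 is a transcription factor known from dendritic cells and is itself 1 of the 11 tested markers of antigen-presenting cells. Of these, 9 were below 0 in the same comparison, with a median of -0.46 over the list. At an unadjusted p under 0.05 there were 1 higher, Zbtb46, and 1 lower. The part of such cells in the Zbtb46 value was not tested. Zbtb46 overlaps 5 genes, among them Lime1 and Zgpat on the opposite strand, which makes it uncertain too.

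**Figure D2:**
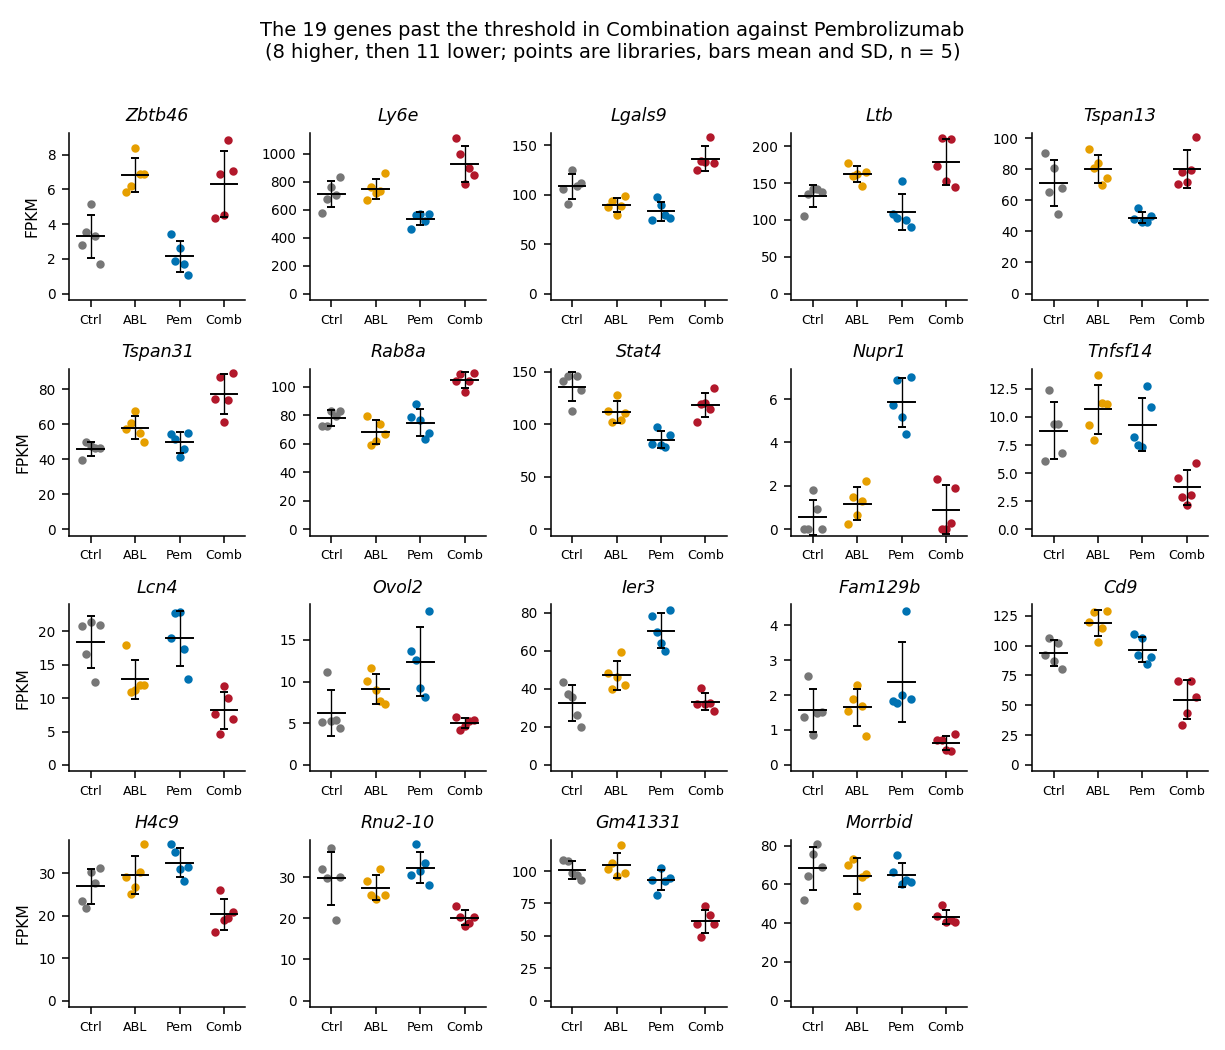
FPKM per library for the 19 genes past the threshold in the 4 groups (Control, ABL503, Pembrolizumab and Combination, 5 points each), with the mean and SD as bars and 1 panel per gene on its own axis. Combination points lie clear of Pembrolizumab points in every panel except Ltb, where Combination library 5 (145 FPKM) is below Pembrolizumab library 3 (152.5 FPKM).

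Among the genes that fell, Ier3 (chr17:35821713-35822911, plus strand) encodes an immediate early protein induced by stress, growth factors and NF-kB. Ier3 read 78.0, 69.9, 64.1, 59.6 and 81.2 FPKM in Pembrolizumab libraries 1 to 5 and 32.2, 40.5, 31.9, 32.7 and 28.2 in Combination libraries 1 to 5. Its highest Combination library was below its lowest Pembrolizumab library. Ier3 fell by 1.07 (SE 0.16, adjusted p = 0.00917). The Control mean was 32.5 FPKM and the ABL503 mean 47.0, so ABL503 alone differed in the other direction, by 0.56 (adjusted p = 0.165). The interaction was -1.62 (SE 0.23, adjusted p = 0.00461).

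Tnfsf14 (chr17:57189474-57194181, minus strand) encodes LIGHT, a TNF superfamily ligand of HVEM and of the lymphotoxin beta receptor, which lymphotoxin beta also engages. It read 8.20, 7.47, 7.29, 12.7 and 10.9 FPKM in Pembrolizumab and 4.601, 2.85, 2.16, 3.08 and 5.94 in the Combination. The groups did not overlap, and LIGHT fell by 1.16 (SE 0.22, adjusted p = 0.0310) while Ltb rose. Cd9 (chr6:125460266-125494760, minus strand), a tetraspanin of the T-cell and platelet surface, read 109.8, 92.5, 106, 85.0 and 90.1 FPKM in Pembrolizumab and 70.0, 33.3, 43.8, 70.2 and 57.0 in the Combination. Combination libraries 2 and 3 were the lowest, and Cd9 fell by 0.85 (SE 0.16, adjusted p = 0.0284). With ABL503 alone Cd9 averaged 119 FPKM against 93.7 in Control, and the interaction was -1.20 (adjusted p = 0.0309). The pseudogene Cd9-ps is 91.1% identical over 54.2% of the Cd9 transcript, so reads could be split between them. Cd9, Stat4, Morrbid and Fam129b also overlap other annotated genes, in part on the opposite strand, and whether strand was used in counting is not given in the sources used here.

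Ovol2 (chr2:144305175-144332080, minus strand), a zinc-finger transcription factor known from epithelia, read 13.7, 12.6, 9.17, 8.10 and 18.5 FPKM in Pembrolizumab and 5.79, 4.19, 4.63, 5.28 and 5.36 in the Combination. The 10 tumour-epithelium markers summed to 7.0 to 15.2 FPKM in Pembrolizumab and 5.6 to 12.3 in the Combination, and their part in the Ovol2 value was not tested. Ovol2 fell by 1.10 (SE 0.21, adjusted p = 0.0346), with an interaction of -1.63 (adjusted p = 0.0309). Lcn4 (chr2:26667674-26671282, minus strand), a lipocalin of the family of small carrier proteins, read 18.9, 22.8, 22.8, 17.4 and 12.9 FPKM in Pembrolizumab and 7.69, 4.69, 11.8, 9.95 and 6.81 in the Combination. No values overlapped, and Lcn4 fell by 1.15 (SE 0.21, adjusted p = 0.0254). Nupr1 (chr7:126623246-126625470, minus strand), a small stress-induced chromatin protein, had the largest fall of the 11, -2.03 (SE 0.36, adjusted p = 0.0254). It read 5.74, 6.89, 5.17, 4.405 and 7.03 FPKM in Pembrolizumab and 2.30, 0, 0, 0.299 and 1.91 in the Combination, so Combination libraries 2 and 3 were listed at 0. Control and ABL503 libraries were low as well, at 0, 0, 1.80, 0.934 and 0 and 0.236, 1.47, 0.679, 1.32 and 2.21 FPKM. Nupr1 lies below the level limit of the naming rule and is named because it was called.

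Morrbid (chr2:128298663-128429351, minus strand) is a long noncoding RNA known for repressing the neighbouring death gene Bcl2l11 (BIM) in immune cells. It went from 65.0 ± 6.19 to 43.2 ± 3.66 FPKM and fell by 0.58 (SE 0.12, adjusted p = 0.0453). Bcl2l11 differed by -0.53 (adjusted p = 0.0909), in the same direction, and did not pass. The remaining falls were the histone gene H4c9 (-0.66, adjusted p = 0.0375) and, outside the naming rule, Fam129b (-1.01, 0.0453), the U2 small nuclear RNA gene Rnu2-10 (-0.65, 0.0431) and the predicted noncoding gene Gm41331 (-0.60, 0.00972). H4c9 resembles 10 other histone genes and Rnu2-10 19 other copies, so their values are uncertain. Gm41331 read 93.3, 81.5, 103, 92.4 and 94.9 FPKM in Pembrolizumab and 59.5, 49.1, 72.9, 65.8 and 58.9 in the Combination. It overlaps the noncoding gene Gm2682, its strand was not found and copies of it could not be searched for, so its value is uncertain too.

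The promoters of 3 of these genes, and that of the chaperone gene Hspe1 described further on, are printed because letters of known immune or stress elements stand in them. They come from RefSeq on GRCm38.p6 and run 5′ to 3′ on the gene's strand from 250 bases before to 30 bases from the annotated start. Capitals mark the motif matches.
Lgals9 chr11:78984895-78985174 (minus strand): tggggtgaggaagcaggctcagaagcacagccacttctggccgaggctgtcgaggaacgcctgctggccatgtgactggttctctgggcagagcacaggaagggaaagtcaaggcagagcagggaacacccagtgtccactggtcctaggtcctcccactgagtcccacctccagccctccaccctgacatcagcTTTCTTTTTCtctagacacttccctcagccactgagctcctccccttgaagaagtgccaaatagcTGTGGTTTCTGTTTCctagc
Ltb chr17:35194257-35194536 (plus strand): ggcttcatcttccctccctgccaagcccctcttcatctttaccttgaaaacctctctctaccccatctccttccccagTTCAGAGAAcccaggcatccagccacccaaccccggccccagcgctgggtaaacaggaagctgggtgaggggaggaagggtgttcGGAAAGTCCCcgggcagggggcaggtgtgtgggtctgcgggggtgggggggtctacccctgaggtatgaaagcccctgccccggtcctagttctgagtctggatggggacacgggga
Ier3 chr17:35821463-35821742 (plus strand): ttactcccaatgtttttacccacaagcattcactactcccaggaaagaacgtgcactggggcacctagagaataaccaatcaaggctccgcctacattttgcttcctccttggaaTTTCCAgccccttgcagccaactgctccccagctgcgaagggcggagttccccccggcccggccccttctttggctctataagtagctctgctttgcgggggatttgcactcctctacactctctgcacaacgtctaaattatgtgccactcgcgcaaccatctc
Hspe1 chr1:55087898-55088177 (plus strand): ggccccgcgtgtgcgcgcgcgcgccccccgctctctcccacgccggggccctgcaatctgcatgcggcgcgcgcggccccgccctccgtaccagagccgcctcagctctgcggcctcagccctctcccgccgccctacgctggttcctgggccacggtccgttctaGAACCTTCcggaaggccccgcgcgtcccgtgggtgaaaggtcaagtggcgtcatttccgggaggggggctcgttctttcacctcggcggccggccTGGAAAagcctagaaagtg

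In Lgals9 the capitals are TTTCTTTTTC, 55 bases before the start, and, after it, TGTGGT and TTTCTGTTTC, which share a base. The longer ones match the core of an interferon-stimulated response element on the other strand, and TGTGGT is the RUNX motif. Ltb holds GGAAAGTCCC, which matches the NF-kB motif on the other strand, 87 bases before its start, and TTCAGAGAA, which matches the STAT motif TTCNNNGAA, 172 bases before it. Ier3 holds TTTCCA, the NFAT motif TGGAAA on the other strand, 135 bases before its start. Windows were found for 7 of the 8 genes that rose and 10 of the 11 that fell, and for 8143 tested genes, each from 250 bases before to 50 from the start, and searched on both strands.

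The NF-kB motif stood in 1 of the 7 (Ltb) and 1 of the 10 (Cd9), and in 1.74% of all windows. TGGAAA stood in 0 of the 7 and in 5 of the 10 (Ier3, Tnfsf14, Nupr1, H4c9 and Gm41331), and in 16.6% of all windows. The AP-1 motif TGANTCA stood in Zbtb46, Tnfsf14 and Morrbid (all windows, 4.79%), TTCNNNGAA in Ltb and Nupr1 (6.91%), TGTGGT in Lgals9, Rab8a, Tnfsf14 and Gm41331 (13.0%), and the sterol element TCACNCCAC in none (0.958%). The interferon element, which was added after the values were seen, stood in Lgals9 only among the called genes with a window (3.38% of all windows). The heat-shock motif GAANNTTC stood in Stat4 only among the called genes with a window (5.85% of all windows). A match describes letters and not a bound site.

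Just short of the threshold, the largest rises by p were Ncf4, a subunit of the phagocyte oxidase (0.64, adjusted p = 0.0525), Itm2b, a membrane protein (0.48, adjusted p = 0.0585), the fatty acid dehydrogenase Acadl (0.49, adjusted p = 0.0585), Tmem173, which encodes the DNA-sensing adaptor STING (0.78, adjusted p = 0.0585), and Syngr2 (0.44, adjusted p = 0.0595). Morrbid, inside the threshold, had an adjusted p of 0.0453, and Ncf4, outside it, 0.0525. On the falling side the next genes were Emc6 (-0.35), Stard10 (-0.78), Hmgn1 (-0.78) and the ribosomal protein gene Rpl13a (-0.39), each at an adjusted p of 0.0595, and Rpl12 (-0.46, adjusted p = 0.0671). Klra5, an inhibitory receptor of the Ly49 family chosen here after its values were seen, stood at 34.0 ± 21.4 FPKM in Pembrolizumab and 3.96 ± 2.47 in the Combination. Its difference of -2.64 had an adjusted p of 0.0579. Of the NK-cell list 6 of 6 tested members were below 0, of which 0 passed (3 at an unadjusted p under 0.05). The smallest p-values in it belonged to Cd160, Fcer1g and Tyrobp. Cd160 is also on the list of inhibitory and exhaustion genes, and Fcer1g and Tyrobp are on the macrophage list. Ncr1 and Klrb1c of the NK-cell list reached at most 0.46 and 1.28 FPKM in the 10 libraries. Other members of that list were higher. Klra7 averaged 16.51 FPKM in Pembrolizumab and 14.78 in the Combination. Klra4, Klra8 and Klra9 reached at most 2.981, 3.894 and 3.174 FPKM in the 10 libraries. The part of NK cells in the Klra5 value was not tested. Segments of the T-cell receptor made up 32 of the 50 genes with the largest absolute difference, and 0 of the 200 tested segments passed.

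The genes of the 4-1BB pathway were described as fixed lists, beside a median of 0.0028 over all genes and 0.161% of all genes called. Tnfrsf9, which encodes 4-1BB itself, read 293, 246, 237, 184 and 243 FPKM in Pembrolizumab and 248, 255, 229.9, 242 and 320.4 in the Combination. The groups overlapped, and the difference of 0.11 had a 95% interval of -0.13 to 0.35 (adjusted p = 0.720). Of 11 tested TNF receptor genes 0 passed in limma, and at an unadjusted p under 0.05 there were 0 higher and 3 lower. The members with the smallest p were Tnfrsf26 (-0.57, adjusted p = 0.265) and the death receptor Fas (-0.48, adjusted p = 0.316). Of 13 tested TNF ligands 1 rose (Ltb) and 1 fell (Tnfsf14), and the median was 0.24. Tnfsf4, the ligand of the costimulatory receptor OX40, read 5.89, 6.64, 5.005, 4.56 and 9.32 FPKM in Pembrolizumab and 11.5, 12.6, 11.3, 17.8 and 23.5 in the Combination. Its groups did not overlap, and its difference of 1.14 did not pass (adjusted p = 0.0998).

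Downstream of the receptors, 0 of 27 TRAF and NF-kB genes passed, with 5 higher and 4 lower at an unadjusted p under 0.05 and a median of -0.080. Traf1, an adaptor that 4-1BB recruits, differed by 0.26 (adjusted p = 0.288), Tank, a TRAF-binding regulator, by 0.51 (adjusted p = 0.0805), and Birc3, an inhibitor of apoptosis, by 0.38 (adjusted p = 0.150). In the BCL2 family 0 of 15 genes passed, with 1 higher and 3 lower at an unadjusted p under 0.05, and 10 of the 15 were below 0 (median -0.14). Bcl2l1, which encodes the survival protein BCL-XL, went from 13.9 ± 1.82 to 9.96 ± 1.82 FPKM, a difference of -0.45 (95% interval -0.70 to -0.20, adjusted p = 0.120).

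Genes of killing did not pass in either direction. Gzmb, which encodes the protease granzyme B, read 2029.7, 2333, 2722, 1970.4 and 2177 FPKM in Pembrolizumab and 2836, 2830.3, 1401, 1545 and 1999 in the Combination. Prf1, which encodes the pore-forming protein perforin, read 30.3, 28.9, 32.5, 33.0 and 40.2 FPKM in Pembrolizumab and 32.7, 32.5, 27.9, 20.7 and 28.8 in the Combination. Both overlapped between the groups, with differences of -0.13 (95% interval -0.55 to 0.28) and -0.21 (-0.64 to 0.22), at adjusted p-values of 0.813 and 0.704. These intervals leave room for differences of either sign, so they do not show that the levels were equal. Of 21 granzyme and granule genes 0 passed, with 3 higher and 3 lower at an unadjusted p under 0.05. Their median of 0.010 turned to -0.021 after quantile normalization. Gzma differed by -1.25 (adjusted p = 0.122).

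Among cytokines, Ifng went from 963 ± 169.8 to 891 ± 166 FPKM, a difference of -0.11 (95% interval -0.46 to 0.23, adjusted p = 0.810). Il10, which encodes a suppressive cytokine, differed by -1.23 (adjusted p = 0.0893), and 0 of 12 cytokine genes passed (1 higher and 2 lower at an unadjusted p under 0.05). Of 12 chemokine genes 10 were below 0, with a median of -0.39, while 0 passed, and 0 were higher and 4 lower at an unadjusted p under 0.05. The smallest p in that list belonged to Ccl4 (-0.56, adjusted p = 0.188), Ccl5 (-0.37, adjusted p = 0.240), Ccl8 (-1.76, adjusted p = 0.310) and Xcl1 (-0.42, adjusted p = 0.378), which attracts cross-presenting dendritic cells. Cx3cr1, the fractalkine receptor of terminal effector cells, differed by -0.996 (adjusted p = 0.0671).

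Genes of exhaustion lay on both sides of 0, and most genes of the memory list below it. Pdcd1, which encodes PD-1, read 37.5, 63.0, 38.2, 54.7 and 47.3 FPKM in Pembrolizumab and 57.3, 87.7, 104, 69.9 and 72.2 in the Combination. Only Combination library 1 lay below a Pembrolizumab library, number 2, and the difference was 0.69 (95% interval 0.20 to 1.18, adjusted p = 0.215). The mouse strain carries human PD-1, and how a human transcript maps to the mouse symbol is not given in the sources used here. The same holds for Tnfrsf9 and Cd274. Of 25 inhibitory and exhaustion genes 0 passed (3 higher and 2 lower at an unadjusted p under 0.05), and 12 were above 0. Of 24 stem-like and memory genes 1 rose, Ltb, and 21 were below 0 (median -0.27, 1 higher and 7 lower at an unadjusted p under 0.05). Tcf7, the transcription factor TCF1 of stem-like cells, went from 11.9 ± 5.70 to 9.49 ± 5.88 FPKM, a difference of -0.38 (95% interval -1.25 to 0.48, adjusted p = 0.734). The list's smallest p-values besides Ltb were those of Foxo1 (-0.49, adjusted p = 0.120), Klf3 (-0.82, adjusted p = 0.150) and Bach2 (-0.54, adjusted p = 0.251), transcription factors of resting T cells. Of 21 effector genes 0 passed and 15 were below 0 (median -0.12, 0 higher and 5 lower at an unadjusted p under 0.05). The average log2(FPKM + 1) of the effector list per library did not overlap, at 5.341 to 5.563 in Pembrolizumab and 5.127 to 5.314 in the Combination. With ABL503 alone 17 of the 21 were above 0 (median 0.29).

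Receptor signalling lists held few calls. Among 19 STAT and SOCS genes 1 rose, Stat4, and the kinase Jak2 differed by -0.57 (adjusted p = 0.0766). Among 18 immediate early genes, which tissue dissociation also induces, 1 fell, Ier3, and the median was -0.070. Of 18 genes induced by the T-cell receptor 0 passed in limma (0 higher and 3 lower at an unadjusted p under 0.05), while 15 of the 18 were below 0 (median -0.25). Myc, the growth regulator, differed by -0.48 (adjusted p = 0.391) and the phosphatase Dusp5 by -0.34 (adjusted p = 0.340). In the receptor complex and its proximal kinases 0 of 25 passed (4 higher and 3 lower at an unadjusted p under 0.05), and the median was 0.018. Il2ra and Il7r, receptors for interleukin 2 and interleukin 7, differed by -0.22 (adjusted p = 0.685) and -0.28 (adjusted p = 0.578), among 21 cytokine receptor genes of which 0 passed (4 higher and 1 lower at an unadjusted p under 0.05).

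Lists of growth and metabolism held no call, and their counts of genes at an unadjusted p under 0.05 are given beside them. Over all 11794 genes 845 were higher and 707 lower at that threshold, and 50.6% were above 0, so counts such as 3 of 25 or 2 of 17 are near the background. All 30 cytosolic ribosomal protein genes were below 0 (median -0.20, 0 higher and 12 lower), and all 30 stayed there under quantile normalization and with libraries rescaled to the same sum. The average log2(FPKM + 1) of the list per library overlapped, at 9.562 to 9.92 in Pembrolizumab and 9.509 to 9.7 in the Combination. With ABL503 alone 27 of the 30 were below 0 as well (median -0.11). Many ribosomal protein genes have near-identical pseudogenes, and how reads were shared with them is not given in the sources used here. Of 23 MYC and ribosome-biogenesis genes 18 were below 0 (median -0.20, 1 higher and 6 lower). Of 25 genes of G2 and mitosis 24 were above 0 (median 0.24, 3 higher and 0 lower), and of 28 replication genes 23 were (median 0.20, 7 higher and 0 lower). Averages per library of the MYC, mitosis and replication lists overlapped between the groups too. Ncapg, a subunit of the condensin that compacts chromosomes, was the nearest to the threshold among the mitotic genes, at 0.86 (adjusted p = 0.0671), and the proliferation marker Mki67 differed by 0.099 (adjusted p = 0.847).

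Of 29 glycolysis genes 22 were above 0 (median 0.19, 9 higher and 1 lower), of 17 genes of fatty acid oxidation 15 (median 0.16, 2 higher and 0 lower) and of 25 genes of the proteasome and class I presentation 21 (median 0.093, 3 higher and 0 lower). Gapdh, an enzyme of glycolysis, differed by 0.31 (adjusted p = 0.180), Acaa2 of fatty acid oxidation by 0.29 (adjusted p = 0.288) and the proteasome subunit gene Psmb9 by 0.38 (adjusted p = 0.183). Of 22 type I interferon genes 0 passed (3 higher and 0 lower) and 16 were above 0 (median 0.14). Mx1, an antiviral GTPase, differed by 0.82 (adjusted p = 0.0595), and the same list had a median of -0.45 for ABL503 alone, with 20 of 22 genes below 0. Lgals9 and Ly6e were not on the interferon list. Genes of a list are not independent of each other, and no test of a list as a whole was made.

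**Figure D3:**
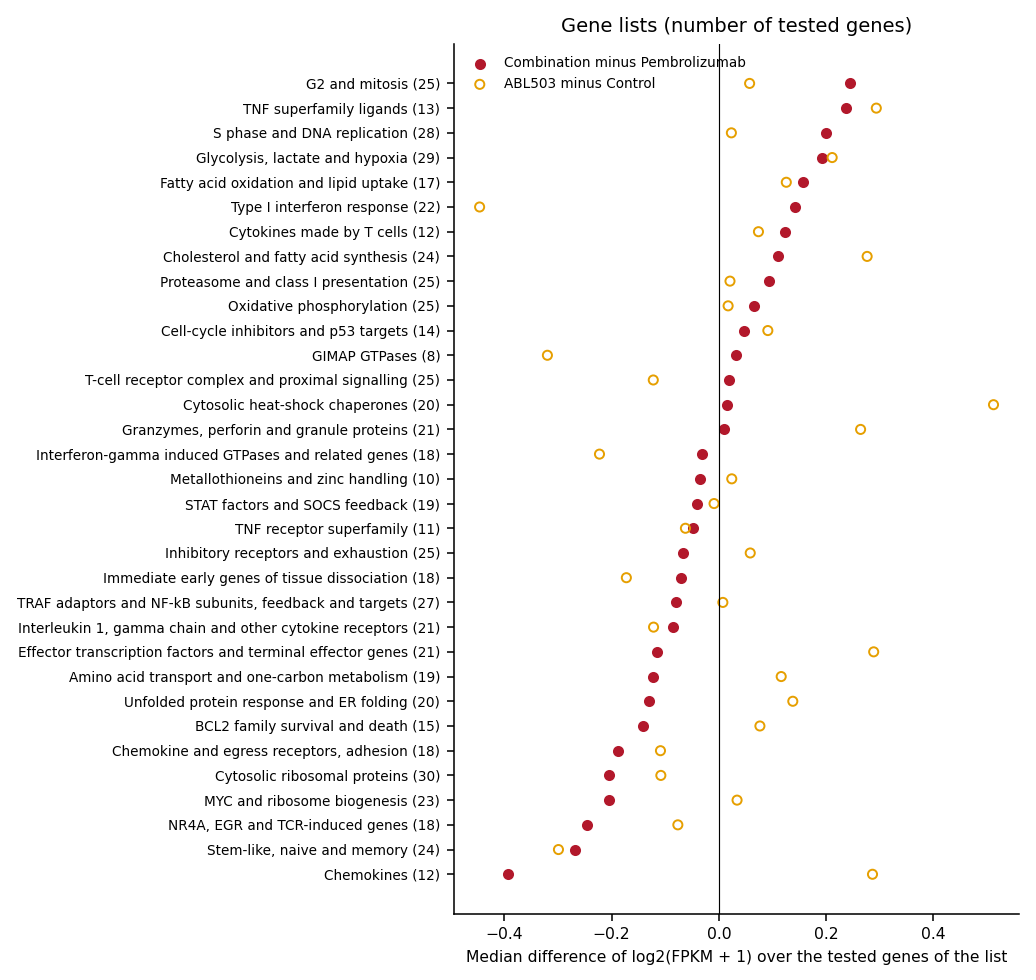
Median difference of each of 33 gene lists on the log2(FPKM + 1) scale, filled for Combination minus Pembrolizumab and open for ABL503 minus Control, which share no library. The chaperone list stands at 0.015 with pembrolizumab and at 0.51 without it, and the type I interferon list at 0.14 and -0.45.

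ABL503 was also given without pembrolizumab. Against Control, 73 genes passed (0.619%), 69 higher (0.585%) and 4 lower (0.0339%). None of them was among the 19 genes, and in lists this short an overlap of 0 says nothing about whether the responses differ. The interaction, which tests that, passed for 13 of the 73, and for 24 of all genes tested (0.203%). The 73 were chosen on the ABL503 minus Control difference, which the interaction subtracts, so their choice favours that count. The 69 genes had been chosen on the ABL503 and Control libraries, so only their values in the other 10 libraries describe the addition to pembrolizumab. There their median difference was 0.041, with 39 higher and 30 lower, and 16 higher and 4 lower at an unadjusted p under 0.05. Over all 11794 genes 845 were higher and 707 lower at that threshold, so the 16 of 69 are a larger share than among all genes. Counted by library, Combination 1 to 5 had 38, 45, 24, 38 and 47 of the 69 above the mean of all Pembrolizumab libraries. Pembrolizumab 1 to 5, each set against the mean of the other Pembrolizumab libraries, had 39, 34, 26, 23 and 43. The 69 also hold near-identical copies of other genes, such as Gm12346, Gm5844 and Gm8355, which are not separate counts. The counts by library overlapped between the Combination and Pembrolizumab.

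Some of the 69 were high in part of the Combination libraries. Il1r2, the decoy receptor that captures interleukin 1, read 123, 58.6, 52.7, 63.6 and 113 FPKM in Pembrolizumab and 185, 271, 86.0, 499 and 617 in the Combination. Gzmc, a granzyme of strongly stimulated killer cells, read 85.4, 64.2, 78.5, 106 and 151 FPKM in Pembrolizumab and 145, 633, 90.7, 706 and 604 in the Combination. Cd70, the ligand of the costimulatory receptor CD27, read 4.31, 2.11, 1.89, 7.81 and 1.74 FPKM in Pembrolizumab and 2.76, 19.6, 4.87, 17.2 and 23.2 in the Combination. In all 3, Combination libraries 2, 4 and 5 were the highest of the 10, while library 3 lay within the Pembrolizumab range, as did library 1 for Gzmc and Cd70. The differences of 1.77 (SE 0.39, adjusted p = 0.0595), 1.79 (SE 0.63, adjusted p = 0.222) and 1.49 (SE 0.46, adjusted p = 0.180) were among the larger ones in the comparison and did not pass. With ABL503 alone the same genes rose by 2.85, 3.81 and 2.84, at adjusted p-values of 0.00189, 0.00477 and 0.00372. Tnfsf4 was in the same set, with a rise of 2.22 (adjusted p = 0.00141) for ABL503 alone. The interactions of Il1r2, Gzmc, Cd70 and Tnfsf4 were -1.08, -2.02, -1.35 and -1.07 and did not pass.

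**Figure D4:**
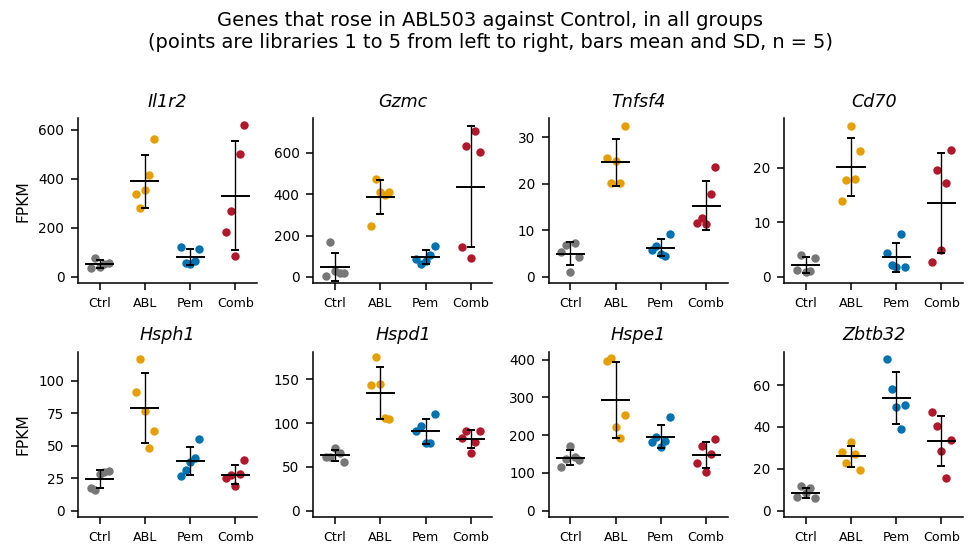
FPKM per library in the 4 groups (5 points each, mean and SD as bars) for Il1r2, Gzmc, Tnfsf4, Cd70, Hsph1, Hspd1, Hspe1 and Zbtb32, 1 panel per gene on its own axis. Il1r2, Gzmc and Cd70 spread widely within the Combination (Il1r2 from 86.0 to 617.5 FPKM), while the chaperones have their highest libraries in ABL503 alone.

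Zbtb32 and 9 of 20 heat-shock chaperone genes rose with ABL503 alone and did not pass on top of pembrolizumab, and for Zbtb32 and 5 of the chaperone genes the difference between those responses passed too. The interaction passed for 24 genes (0.203%), 5 higher (0.0424%) and 19 lower (0.161%). Zbtb32, a transcriptional repressor that activated lymphocytes express, read 6.30, 11.6, 8.28, 10.6 and 6.23 FPKM in Control and 27.9, 22.6, 32.7, 27.2 and 19.4 in ABL503. With pembrolizumab it read 72.5, 57.9, 49.4, 39.1 and 50.5 FPKM without ABL503 and 47.1, 40.3, 28.6, 15.7 and 33.8 with it. It rose by 1.51 with ABL503 alone (adjusted p = 0.00311) and differed by -0.74 on top of pembrolizumab (adjusted p = 0.189), an interaction of -2.25 (SE 0.33, adjusted p = 0.00461). The ABL503 libraries lay above all Control libraries, while Combination and Pembrolizumab libraries overlapped.

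Of 20 heat-shock chaperone genes, whose products fold other proteins, 9 rose with ABL503 alone and 5 passed the interaction, all lower. On top of pembrolizumab 0 of the 20 passed (0 higher and 2 lower at an unadjusted p under 0.05), and the median of 0.015 turned to -0.018 after quantile normalization. Hspd1, the mitochondrial chaperonin HSP60, averaged 63.1 ± 6.29 FPKM in Control, 135 ± 29.8 in ABL503, 90.5 ± 13.9 in Pembrolizumab and 81.8 ± 10.1 in the Combination. It differed by 1.06 (adjusted p = 0.00141) without and -0.14 (adjusted p = 0.699) with pembrolizumab, an interaction of -1.20 (adjusted p = 0.00884). Its partner Hspe1 (HSP10), which starts head to head with it on the opposite strand, rose by 1.00 (adjusted p = 0.0140) without and differed by -0.42 with pembrolizumab (interaction adjusted p = 0.0337). The Hspe1 window printed above holds the heat-shock letters GAACCTTC 84 bases before its start, and TGGAAA from 11 bases after it. GAANNTTC stood in 2 of the 3 chaperone promoters found among those past the interaction (Hsph1 and Hspe1) and in 5.85% of all windows. Among the 17 windows of all interaction genes it stood in 3, the third being Stat4, whose interaction was positive. Hsph1, which encodes HSP110, had the largest chaperone interaction, -2.09 (adjusted p = 0.0119), and Hsp90ab1, which encodes HSP90 beta, had an interaction of -0.73 (0.00461). The uncertain copies Gm12346 and Gm5844, 99.5% and 98.5% identical to Hsp90aa1, and Gm8355, 98.7% identical to Hspa8, passed too and cannot be counted as separate genes. Hspd1 resembles 5 other genes, the closest being Hspd1-ps3, 99.0% identical over 71.1% of the Hspd1 transcript. Gm6368 is 91.0% identical over 86.4% of the Hsp90ab1 transcript. Reads could be split among such copies, so the Hspd1 and Hsp90ab1 values are uncertain too.

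The 24 interaction genes were grouped by which comparison passed, which does not locate the response. Genes called in 1 comparison could also lean in the other. Zbtb32 and Hspe1 differed by -0.74 and -0.42 on top of pembrolizumab without passing there. Ier3, Cd9 and Ovol2 differed by 0.56, 0.35 and 0.53 with ABL503 alone, also without passing. For 8 of the 24, Combination against Pembrolizumab passed (Lgals9, Stat4, Rab8a, Ier3, Cd9, Ovol2, Nupr1 and Gm41331). For 13, ABL503 against Control passed, the chaperones and Zbtb32 among them. The other 3 passed the interaction alone: Stard10, a lipid-transfer protein gene, with -1.24 (adjusted p = 0.0342), Limd2 with 0.70 (0.0328) and Mob2, a kinase cofactor gene, with 0.62 (0.0337). The other 11 genes called on top of pembrolizumab, Ly6e among them, did not pass the interaction, so a different response with and without pembrolizumab was not shown for them. Counted by sign alone, 8 of the 19 called genes, Ly6e again among them, differed in the same direction with ABL503 alone.

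**Figure D5:**
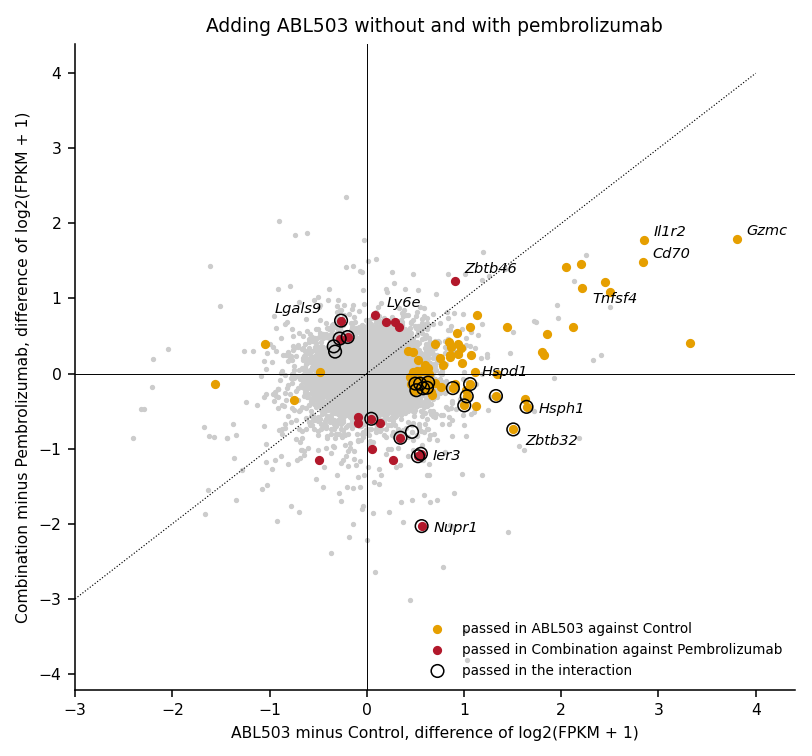
Each point is a tested gene, with ABL503 minus Control on the x axis and Combination minus Pembrolizumab on the y axis, both on the log2(FPKM + 1) scale; circles mark the 24 genes whose interaction passed and the dotted line marks equal differences. Zbtb32 lies at 1.51 and -0.74 and Lgals9 at -0.26 and 0.71, on opposite sides of the line.

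The set of 19 depends on single libraries. Ly6e, Lgals9, Ier3 and Gm41331 kept an adjusted p under 0.05 when each of the 20 libraries was left out in turn, while the other 15 lost it in 3 to 15 of the 20 fits, the most in Morrbid and Rnu2-10. Without Pembrolizumab library 1, 6 genes passed, without Pembrolizumab library 5, 7, without Combination library 2, 6, and without Combination library 4 or 5, 7. Without Pembrolizumab library 4 there were 12. Without Pembrolizumab library 2 there were 49, without Combination library 1 45, without Pembrolizumab library 3 31 and without Control library 1, which only enters the shared spread, 30. Fitted on the 10 libraries compared alone, 3 genes passed. In the interaction, Lgals9, Ier3, Zbtb32, Hsp90ab1, Hspd1 and Hsph1 kept their call in all 20 such fits, Hspe1 lost it in 10 and Hsp90aa1 in 14.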

How the data were processed

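RNA from sorted CD8+ T cells was sequenced in 20 libraries of 4 groups of 5, made with SMART-Seq v4 per the labels' protocols. The submitters' processing notes name HISAT2, StringTie and the build GRCm38 (mm10), without versions. The authors deposited 1 table, whose values were taken to be FPKM because they are not whole numbers and their column sums differ. No counts are in it, so depth and counting error are unknown and no count model was run. Values were analysed as log2(FPKM + 1), computed here from the deposited FPKM, for 11794 genes that reached 1 FPKM in 5 or more libraries. A mean for each group was fitted over all 20 libraries with limma 3.58.1 (R 4.3.3), leaving 16 residual degrees of freedom and with variances moderated by an intensity trend, for Combination minus Pembrolizumab, ABL503 minus Control and the difference of these 2 (the interaction). Benjamini-Hochberg adjustment ran over all tested genes and tests were two-sided. The members, the 43 gene lists and the naming rule were chosen with earlier results of these data known. The rule took the 12 largest rises and 12 largest falls among called genes whose average log2(FPKM + 1) reached 3, filled up with the smallest p-values, without predicted models, pseudogenes, small RNAs and receptor segments, plus up to 4 genes of smallest p per list, a panel of T-cell genes and the 5 genes of smallest interaction p. Called genes outside it, Cdk4 and Klra5 were named after their values were seen. Positions and promoters are from RefSeq on GRCm38.p6, in which 40686 symbols (88.9%) were found. Overlaps are from GENCODE M21, and near-identical copies are blastn 2.17.0 matches of at least 90% identity over at least 30% of a transcript. Simulated data for the main comparison used independent normal noise of the spread that the model had fitted. Changes of 1.5-, 2- and 4-fold were given to 67, 67 and 66 genes whose Pembrolizumab mean log2(FPKM + 1) was above 2. The fit recovered 46.3%, 88.1% and 98.5% of them, with 9 wrong calls among the unchanged genes. Changes in genes of lower level and other forms of noise were not simulated, so the shares do not carry over to them. Summaries and plots were made in Python 3.11.15 (pandas 2.3.3, matplotlib 3.10.9). Alternatives were another pseudocount (0.1), no filter, a filter at 5 FPKM, quantile normalization, array weights, a replicate block, the compared groups alone, an adjusted p under 0.1, a log2 change of at least 1, no trend and leaving out each library. Rescaling to equal sums and leaving out Control 1 with ABL503 3 were added after the data were seen.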

Additional observations from a re-analysis of the deposited data

Results flagged for a closer look

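The effect of ABL503 with and without pembrolizumab differed for 24 genes by limma's interaction test, and the values in parentheses are the interaction on the log2(FPKM + 1) scale and its adjusted p. Higher on top of pembrolizumab than alone were Lgals9 (0.97, 0.00461), Stat4 (0.75, 0.0226), Limd2 (0.70, 0.0328), Rab8a (0.68, 0.0342) and Mob2 (0.62, 0.0337). Lower among genes that fell or leaned down on top of pembrolizumab were Nupr1 (-2.60, 0.0344), Ovol2 (-1.63, 0.0309), Ier3 (-1.62, 0.00461), Stard10 (-1.24, 0.0342), Cd9 (-1.20, 0.0309) and Gm41331 (-0.65, 0.0495). Lower among genes that had risen with ABL503 alone were Zbtb32 (-2.25, 0.00461), Hsph1 (-2.09, 0.0119), Hspe1 (-1.43, 0.0337), Hspd1 (-1.20, 0.00884), Hsp90aa1 (-0.75, 0.0344), Hsp90ab1 (-0.73, 0.00461), Mrps6 (-1.08, 0.0342), Plp2 (-0.63, 0.0495) and Ms4a4a (-1.63, 0.0359). Ms4a4a encodes a membrane protein of the MS4A family and Mrps6 a subunit of the mitochondrial ribosome. The same held for copies whose values cannot be separated from a parent gene, Gm5844 (-0.81, 0.0322), Gm12346 (-0.77, 0.0482), Gm8355 (-0.68, 0.0337) and Gm9845 (-1.33, 0.0364), the last being identical to a stretch of Cflar. Gm6169 is 99.6% identical over 60.6% of the Plp2 transcript, and Mrps6 overlaps Slc5a3 and Gm49711 on the same strand. The Plp2 and Mrps6 values are therefore uncertain too. A single library stood far from the other 4 of its group in 2 of 128 pairs of gene and group examined, where chance gives about 1 in 20. Fam129b read 4.399 FPKM in Pembrolizumab library 4 and 1.77 to 1.99 in the others, and Gm8355 read 59.0 FPKM in Pembrolizumab library 5 and 44.2 to 47.7 in the others.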

How the results depend on the processing

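Numbers of genes are given for Combination against Pembrolizumab, ABL503 against Control and the interaction in that order, and stood at 19, 73 and 24 as reported. Counts within 1.5 times of these came from a pseudocount of 0.1 (20, 73 and 20), quantile normalization (23, 87 and 30) and rescaling to equal sums (23, 73 and 24). Without the filter on low values there were 3, 42 and 6 among 31149 genes, and with the filter at 5 FPKM 48, 78 and 48 among 7156. Array weights gave 85, 63 and 50, and a fit without the intensity trend 12, 61 and 7. On the libraries of each comparison alone 3 and 60 genes passed, and the interaction needs all 4 groups. At an adjusted p under 0.1 there were 99, 115 and 79, and with an absolute log2 change of at least 1 there were 7, 30 and 12. Leaving out each library in turn gave 6 to 49, 40 to 85 and 6 to 49. The count for ABL503 against Control moved by over 1.5 times without ABL503 library 5 (40) or 3 (46). That of the interaction did so without Pembrolizumab library 1 (6), 3 (14), 4 (49) or 5 (7), Combination library 2 (11), 3 (7) or 4 (11), Control library 3 (12) or 5 (10), and ABL503 library 2 (11) or 5 (10). Leaving out Control 1 and ABL503 3, the pair with the lowest array weights (0.513 and 0.589), gave 32, 37 and 7. A fit with replicate block gave 17, 60 and 16, of which 11, 57 and 14 were among those reported. The labels do not say what a number shares, the deviations of same-numbered Combination and Pembrolizumab libraries correlated at -0.0019 to 0.11 across genes, and 2 of 5 Combination libraries correlated best with their own number, so the numbers were not taken as pairs. Ly6e and Lgals9 lost their call only to the minimum change of 1, and Ier3 only without the filter (adjusted p = 0.0506). Nupr1 also lost it with the other pseudocount (0.108), besides the fits without single libraries. No called gene changed direction under the alternatives run. Among uncalled genes named for Combination minus Pembrolizumab, the differences of Gzmb and Il2ra without Combination library 3 and of Mki67 without Pembrolizumab library 1 lay just across 0. On the list level, quantile normalization turned the sign of the list medians of granzymes and of chaperones on top of pembrolizumab. The cause of these shifts was not tested beyond the number of genes or libraries entering each fit. Depth is unknown, so what low values can show is limited by the spread of 5 libraries per group.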

Other observations

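Several other groups of genes held no call on top of pembrolizumab and are given by their counts, with genes at an unadjusted p under 0.05 in parentheses. Of 24 genes of cholesterol and fatty acid synthesis 18 were above 0 (median 0.11, 2 higher and 1 lower), and Idi1, an isomerase of the sterol pathway, differed by 0.54 (adjusted p = 0.242). Of 25 genes of oxidative phosphorylation 15 were above 0 (median 0.066, 5 higher and 2 lower). Of 19 genes of amino acid transport and single-carbon metabolism 14 were below 0 (median -0.12, 1 higher and 4 lower), and Slc7a5, the large neutral amino acid transporter, differed by -0.60 (adjusted p = 0.114). Of 20 genes of the unfolded protein response 13 were below 0 (median -0.13, 1 higher and 4 lower), with -0.27 (adjusted p = 0.179) for the ER chaperone BiP (Hspa5). Of 18 chemokine, egress and adhesion receptor genes 11 were below 0 (median -0.19, 2 higher and 1 lower). Of 18 GTPase and related genes induced by interferon gamma 11 were below 0 (median -0.031, 0 higher and 0 lower). The 8 GIMAP genes, which encode GTPases of lymphocyte survival, had a median of 0.033 on top of pembrolizumab (0 higher and 1 lower) and were all below 0 with ABL503 alone (median -0.32), where 1 fell. The 10 metallothionein and zinc genes and the 14 cell-cycle inhibitor and p53 genes had medians of -0.035 (0 higher and 0 lower) and 0.046 (1 higher and 2 lower).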
